A study of Mus musculus with 35 samples.

Results

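Collagens, laminins and a set of matrix glycoproteins were followed across 10 groups of mouse perigonadal fat, the visceral depot beside the gonads. The members were the probe sets of the array whose 1 annotated gene symbol names a collagen chain, a laminin chain, or one of Fn1, Sparc, Dcn, Bgn, Lum, Fmod, Nid1, Nid2, Dpt, Eln, Lox, Thbs2, Tnc, Fbln1 and Fbln2. This gave 81 probe sets for 55 genes, of 12422 probe sets and 8251 gene symbols in all. Of the 55 genes, 31 encode collagen chains (44 probe sets), 9 encode laminin chains (14 probe sets) and 15 encode glycoproteins or the enzyme Lox (23 probe sets). Fbn1 and Thbs1, which also belong to the rule, had no probe set with a single symbol and were not analysed here.

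RNA of 35 samples was hybridised to Affymetrix MG-U74Av2 oligonucleotide arrays, 1 array per sample. All mice were on the C57BL/6J background and 22 weeks old per the labels. In males the groups were untreated ob/ob mice, which carry 2 copies of a null allele of the leptin gene (4 arrays), wild-type mice made obese by diet and given pioglitazone at 10 mg/kg per day for 2 weeks (4), wild-type mice made obese by the same diet without drug (3), and untreated lean wild-type mice (4). In females the groups were ob/ob mice given CL316243 at 3 mg/kg per day for 2 weeks (2), ob/ob mice given pioglitazone at 10 mg/kg per day for 2 weeks (3), untreated ob/ob mice (4), Ay/+ mice given pioglitazone for 2 weeks (3), untreated Ay/+ mice (4) and untreated lean wild-type mice (4). The pioglitazone dose of 10 mg/kg per day is given in the labels of the Ay/+ samples 1 and 2 and is not in that of sample 3. Pioglitazone activates the nuclear receptor PPAR gamma, and CL316243 activates the beta3 adrenergic receptor. Ay is a dominant allele of the agouti gene that is expressed in all tissues. Leptin and agouti are lacking or misexpressed in the whole animal, so no group isolates an action in fat. The labels do not say whether a sample was 1 animal or a pool, and p-values measure the spread between these samples, which may be technical.

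Fat cells lie in a mesh that their neighbours, chiefly fibroblast-like stromal cells, secrete, and each fat cell is wrapped in a basement membrane that it makes in part itself. Fibrillar collagens give the mesh its strength, small leucine-rich proteoglycans such as biglycan, decorin, lumican and fibromodulin bind the fibrils and set their spacing, and lysyl oxidase (Lox) links collagen and elastin chains to each other. Basement membranes are sheets of laminin and type IV collagen that nidogens and other linkers hold together. Accumulation of matrix around growing fat cells is a known feature of obese fat.

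Signals are given as scaled signals, which are the deposited intensities after each array was multiplied so that its 2% trimmed mean was 250. A log2 fold change is that of the signal plus 23, fitted by limma over all 35 arrays. A probe set is said to be called where its p, adjusted over all 12422 probe sets of the comparison, is under 0.05, and a gene with several probe sets is represented by the brightest. Levels are compared between groups for 1 probe set and never between probe sets. The 4 arrays that stand apart are Ay/+ female 1, ob/ob female 4, pioglitazone-treated Ay/+ female 3 and pioglitazone-treated diet-induced obese male 1. The last had a Gapdh 3' to 5' ratio of 46.9, against 0.708 to 2.51 in the other arrays. The deposited experiment files fall into 2 forms, on 13 later and 22 earlier arrays. The arrays of ob/ob males were without exception later ones, and those of females given a drug earlier ones. When the 4 arrays apart were left out, called member probe sets numbered 33 in place of 24 in ob/ob against lean females, 24 in place of 16 in Ay/+ against lean females, 39 in place of 22 in ob/ob against Ay/+ females, and 31 in place of 20 in lean males against lean females. They numbered 13 in place of 6 with pioglitazone in Ay/+ females, 8 in place of 3 in obese males, and 13 in place of 4 with CL316243. With those 4 left out, no scan day was shared between the untreated female groups or between treated and untreated Ay/+ females. In those comparisons effect and scan day could then not be told apart. Array scan days were not shared between ob/ob and lean males, between treated and untreated ob/ob females, or between both drugs, so effect and scan day cannot be told apart there. In whole tissue, fewer cells of a type and less RNA per cell cannot be told apart.

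Of the 55 genes, 37 were called in at least 1 of the 12 comparisons between 2 groups. The share of all genes called at least once was not counted. In single comparisons 0.877% to 24.3% of all probe sets were called. The comparisons share groups, so calls of 1 gene in several of them are not independent. Dpt and Nid2 were called in 7 comparisons each, Sparc in 6 and Bgn in 5. By brightest probe set, Bgn was higher in the first-named group in all 5, Sparc in 5 of 6, and Eln lower in all 3 of its calls. Signals of Col22a1, Col2a1, Col4a3, Col4a4 and Lama3 stayed under 46 in every group mean for all their probe sets. These 5 were among the 18 genes that were called in no comparison. The other 13 were Col11a1, Col12a1, Col14a1, Col17a1, Col1a2, Col6a1, Col8a1, Col9a1, Lama1, Lama2, Lamb2, Lamc1 and Nid1, each by its brightest probe set. Among them are the second chain of type I collagen (Col1a2), a chain of the type VI collagen that surrounds fat cells (Col6a1) and the gamma1 chain common to most laminins (Lamc1).

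**Figure D1:**
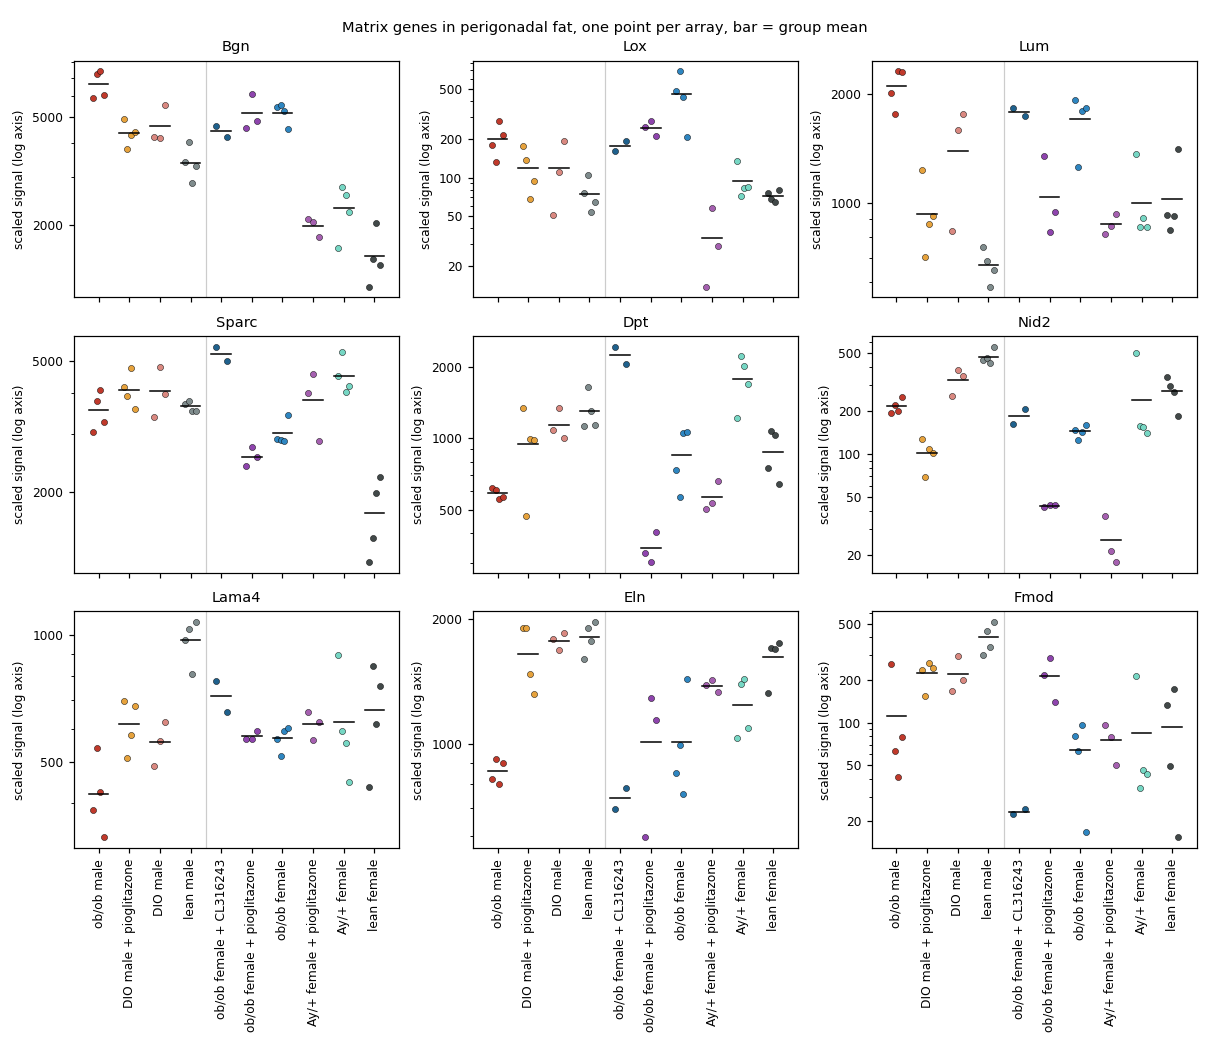
Scaled signal (log axis) of 9 matrix genes on every array, by group, with males left of the grey line and females right of it. Points are arrays and bars are group means. Group means of lumican and biglycan were higher in both untreated ob/ob groups than in lean mice of the same sex. Nidogen 2 was lower in each pioglitazone group than in the untreated group of the same model.

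**Figure D2:**
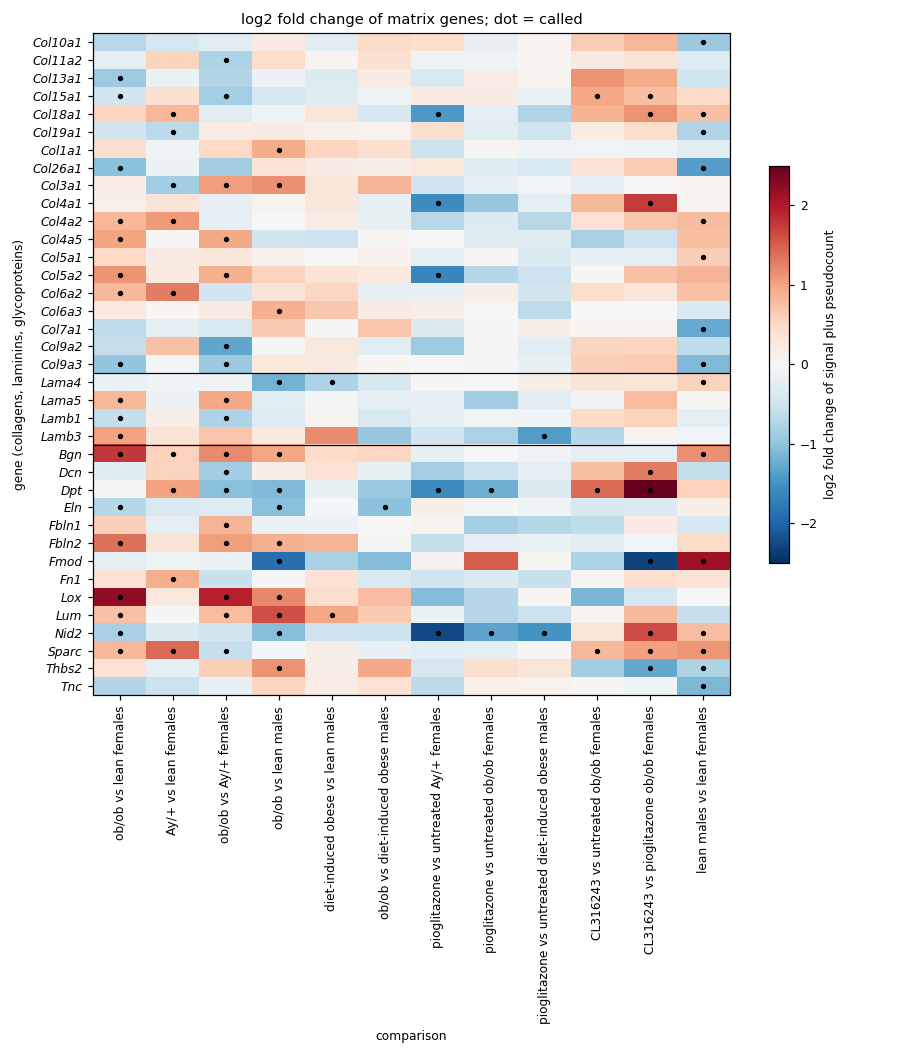
Log2 fold changes of the 37 genes called at least once (rows, brightest probe set) in the 12 comparisons between 2 groups (columns). Red is higher and blue lower in the first-named group, and a dot marks a call. Bgn was red at each of its 5 dots, and Nid2 was blue and dotted in all 3 pioglitazone comparisons.

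Promoter sequences are shown for Dpt and Bgn, which are among the 4 genes called most often, and for Col3a1, a fibrillar collagen. RefSeq promoter entries (build GRCm38.p6) matched 36 of the 55 genes. The 250 bases before each annotated start site are printed 5' to 3', with matches to the searched motifs in capitals.
Dpt: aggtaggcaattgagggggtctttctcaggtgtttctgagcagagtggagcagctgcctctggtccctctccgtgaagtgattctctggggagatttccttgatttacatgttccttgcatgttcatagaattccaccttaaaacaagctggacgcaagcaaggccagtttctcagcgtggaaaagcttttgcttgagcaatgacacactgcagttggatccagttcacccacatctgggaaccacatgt
Bgn: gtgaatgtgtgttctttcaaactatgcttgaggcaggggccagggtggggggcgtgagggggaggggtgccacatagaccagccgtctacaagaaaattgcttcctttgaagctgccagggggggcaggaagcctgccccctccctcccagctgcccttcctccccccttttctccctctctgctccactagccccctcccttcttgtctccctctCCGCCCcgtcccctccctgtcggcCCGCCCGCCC
Col3a1: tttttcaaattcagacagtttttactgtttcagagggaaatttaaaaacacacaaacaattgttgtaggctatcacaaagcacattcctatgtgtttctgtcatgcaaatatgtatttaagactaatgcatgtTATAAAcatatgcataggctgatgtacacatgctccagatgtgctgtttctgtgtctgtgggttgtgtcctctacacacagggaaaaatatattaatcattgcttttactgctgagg
The windows are chr1:164796413-164796662 for Dpt, chrX:73483351-73483600 for Bgn and chr1:45311288-45311537 for Col3a1, all on the plus strand. Capitals in the Bgn window are 3 reverse complements of the GC box GGGCGG, at -34, -10 and -6 from the start site, of which the last ones overlap. Those in the Col3a1 window are a match to the TATA box motif TATAAA, at -117 from the start site. The Dpt window held none of the motifs searched. Both strands were searched for each motif named here. The GC box was in 20 of the 42 promoter windows of the 36 matched genes, against 32.7% of all 32851 promoters. AGGTCA, a nuclear receptor half-site, was in 4 of the 42, against 14.0% of all. The TATA box was in 8 of the 42, against 12.4% of all. The CCAAT box was in 12 of the 42, against 33.8% of all. TGANTCA, the core of AP-1 sites, was in 1 of the 42, against 6.75% of all. By gene, with a match in any window counted, the motifs were in 18, 4, 7, 12 and 1 of 36, in this order. These are 50%, 11.1%, 19.4%, 33.3% and 2.78% of the matched genes. Some genes had more than 1 window, so the shares by gene are not comparable with those of all promoters. A match is only a description of the letters in the window.

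In male ob/ob fat, lumican, biglycan, Lox, Thbs2, Fbln2 and the collagen chains Col3a1, Col1a1 and Col6a3 were higher than in lean fat, and elastin, nidogen 2, dermatopontin, fibromodulin and laminin alpha4 were lower. Of the 81 probe sets, 10 were higher and 5 lower in ob/ob than in lean males (18.5%), against 10.6% of all probe sets (5.62% higher and 4.96% lower). By gene, 8 of 55 were higher and 5 lower. The glycoproteins held 9 of these 13 genes, with 5 of 15 higher and 4 lower. Of the collagens 3 of 31 were higher and none lower (4 of 44 probe sets, 9.09%, near the share of all probe sets), and of the laminins 1 of 9 was lower. The median log2 fold change of the 55 genes was 0.02, against 0.06 over all probe sets.

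Among the fibrillar collagens, Col3a1, the chain of type III collagen, had signals of 3126, 3720, 4548 and 3631 in ob/ob males, against 1904, 1796, 1255 and 1782 in lean males. The groups did not overlap, and the log2 fold change was 1.15 ± 0.30 (SE, adjusted p = 0.00761). Col1a1, the main chain of type I collagen, averaged 2746 ± 556 in ob/ob and 1408 ± 145 in lean males (SD, n = 4 each), a log2 fold change of 0.94 ± 0.25 (SE, adjusted p = 0.00898). Col6a3, a chain of type VI collagen, averaged 2381 ± 457 in ob/ob and 1292 ± 341 in lean males (log2 0.88, adjusted p = 0.00674). The partner chain Col1a2 was not called at its brightest probe set (log2 0.47, adjusted p = 0.473). Nor were Col6a1 (0.25, adjusted p = 0.603) and Col6a2 (0.31, adjusted p = 0.669). Another Col3a1 probe set, 102990_at, was also called higher (log2 1.29, adjusted p = 0.0107), and a further one, 161984_f_at, was not called (0.82, adjusted p = 0.0704). At the other Col1a1 probe set, 103709_at, means were 659 in ob/ob and 880 in lean males (log2 -0.34, adjusted p = 0.816).

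Lumican (Lum), a fibril-binding proteoglycan, had signals of 2023, 1770, 2320 and 2309 in ob/ob males, against 753, 688, 584 and 651 in lean males. Every ob/ob array was over 2 times the highest lean array, and the rise was 3.07-fold (log2 1.62 ± 0.22, SE, adjusted p = 1.32e-06). Biglycan (Bgn) had signals of 5894, 7236, 7381 and 6032 in ob/ob males, against 3408, 4036, 2858 and 3289 in lean males, also without overlap (log2 0.96, adjusted p = 0.000294). The other Bgn probe set, 162347_f_at, was called higher too (log2 0.72, adjusted p = 0.0371). Lox, the cross-linking enzyme, had signals of 182, 132, 282 and 217 in ob/ob males, against 76.2, 105, 53.9 and 64.4 in lean males. Its rise of 2.29-fold (adjusted p = 0.00942) was not called with scan day as a random block (adjusted p = 0.0507) or without ob/ob male 3. The other Lox probe set, 161177_f_at, was not called (log2 0.22, adjusted p = 0.878). Thbs2, a matricellular regulator of fibril formation, averaged 102 ± 13.0 in ob/ob and 36.0 ± 16.4 in lean males (log2 1.12, adjusted p = 0.00241). Fbln2, an elastic fibre and basement membrane glycoprotein, averaged 1284 ± 155 in ob/ob and 699 ± 174 in lean males (log2 0.88, adjusted p = 0.0161), a call that was lost with the batch in the fit (adjusted p = 0.0639).

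Of the members that fell, Lama4, the laminin chain of vessels and fat cells, had signals of 386, 540.1, 424 and 331 in ob/ob males, against 971, 1033, 806 and 1071 in lean males. The groups were well apart, and the fall was 2.26-fold (log2 -1.18 ± 0.19, SE, adjusted p = 2.84e-05). Nid2, a basement membrane linker, had signals of 194, 218, 200 and 250 in ob/ob males, against 448, 461, 430.3 and 554 in lean males (log2 -1.06, adjusted p = 0.00445). Eln, the elastin of elastic fibres, had signals of 825, 919, 803 and 900.1 in ob/ob males, against 1604, 1912, 1772 and 1969 in lean males (log2 -1.05, adjusted p = 0.000213). For both genes every ob/ob array lay below every lean array. The other Eln probe set, 92207_at, averaged 32.8 in ob/ob and 29.3 in lean males and was not called (log2 0.09, adjusted p = 0.958). Dpt (dermatopontin), a small protein that binds decorin and fibrils, had signals of 620.3, 606, 559 and 571 in ob/ob males, against 1128, 1635, 1299 and 1137 in lean males (log2 -1.10, adjusted p = 0.0013). Fmod (fibromodulin) had signals of 261, 62.7, 41.6 and 78.8 in ob/ob males, against 300.1, 446, 345 and 513 in lean males (log2 -1.89, adjusted p = 0.00346). The first ob/ob male array was close to the lean arrays, and without it the log2 fold change was -2.33. That array also had a summed signal of 9 male reproductive tract markers of 17180, against 237 to 516 in the other ob/ob males, and the part of that tissue in the result was not tested. The other Fmod probe set, 161373_r_at, averaged 22.7 in ob/ob and 17.6 in lean males and was not called (log2 0.14, adjusted p = 0.927).

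Cell type markers moved in the same comparison. Of 16 macrophage markers 15 rose, with summed signals of 35320 to 50100 in ob/ob males and 8624 to 10870 in lean males. Of 12 adipocyte markers 8 fell (19890 to 30570 in ob/ob males, against 42760 to 51050 in lean males), and of 12 endothelial markers 7 fell (3981 to 5593, against 8265 to 10500). None of these markers had a signal of 0 on any array. Their part in the changes of matrix genes was not tested.

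In female ob/ob fat Lox, biglycan and Fbln2 rose by their brightest probe sets, and elastin and nidogen 2 fell. Of the 81 probe sets 13 were higher and 11 lower in ob/ob than in lean females (29.6%), against 24.3% of all probe sets (10.3% higher and 14% lower), a share close to the background. By gene 11 rose and 7 fell. The median over the 55 genes was -0.10, against -0.18 over all probe sets. The number of calls depended on single arrays, with 13 to 30 called when 1 array was left out (13 without ob/ob female 2, 14 without lean female 1, 15 without ob/ob female 1), and 10 were called with scan day as a random block.

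Bgn had signals of 5454, 5523, 5280 and 4535 in ob/ob females, against 1185, 1498, 2034 and 1422 in lean females. The lowest ob/ob array was over 2 times the highest lean array, and the rise was 3.41-fold (log2 1.77 ± 0.18, SE, adjusted p = 1.35e-08). The other Bgn probe set, 162347_f_at, was not called in this comparison and had a negative log2 fold change, opposite in sign to the brightest one. Its ob/ob effect was higher in males than in females (difference 1.06 in log2, adjusted p = 0.0478). Lox had signals of 482, 688, 431 and 211 in ob/ob females, against 75.9, 68.4, 64.4 and 80.2 in lean females. It was higher on each ob/ob array (4.65-fold, adjusted p = 4.11e-06), the lowest of which was ob/ob female 4. The other Lox probe set, 161177_f_at, was not called and had a negative log2 fold change, opposite in sign to the brightest one. Fbln2 had signals of 1251, 1438, 1137 and 1421 in ob/ob females, against 349, 390, 417 and 1013 in lean females (log2 1.37, adjusted p = 0.000143). Lum averaged 1705 ± 304 in ob/ob and 1023 ± 262 in lean females (log2 0.74, adjusted p = 0.0129), with 1 overlapping lean array, and Sparc, a collagen-binding chaperone of the matrix, averaged 3019 ± 269 in ob/ob and 1727 ± 462 in lean females (log2 0.83, adjusted p = 0.00125). The Lum call was lost with scan day as a random block (adjusted p = 0.0614).

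Collagen calls in ob/ob females went both ways, with 6 of 44 probe sets higher and 6 lower (27.3%), near the 24.3% of all probe sets. Col5a2, a regulator of fibril diameter, averaged 2167 ± 578 in ob/ob and 1012 ± 452 in lean females (log2 1.13, adjusted p = 0.00838). The type IV chains Col4a2 (log2 0.82, adjusted p = 0.00331) and Col4a5 (0.99, adjusted p = 0.00887) and the type VI chain Col6a2 (0.80, adjusted p = 0.0408) also rose. Col4a1, which pairs with Col4a2 in the same molecule, was not called (0.12, adjusted p = 0.789). Col26a1 (log2 -1.03), Col9a3 (-0.97), Col13a1 (-0.91) and Col15a1 (-0.47), a collagen of the basement membrane zone, fell, each with adjusted p between 0.0302 and 0.0455, and the 4 calls were lost in 5 or 6 of 8 fits that each left out 1 array. Lamb1, a laminin beta chain, fell (log2 -0.60, adjusted p = 0.0316), and this call was lost in 6 of the 8. Lama5 (0.82, adjusted p = 0.0249) and Lamb3 (1.00, adjusted p = 0.027) rose. Lama5 was 0.35 without lean female 2, which had a signal of 42.3 against 174 to 250.3 in the other lean arrays, and its second probe set 161702_f_at fell (log2 -1.18, adjusted p = 0.0351).

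Nid2 had signals of 147, 125, 143 and 159 in ob/ob females, against 344, 296, 268 and 184 in lean females, and Eln averaged 1010 ± 299 in ob/ob and 1622 ± 196 in lean females. Both fell (log2 -0.80, adjusted p = 0.0223, and -0.70, adjusted p = 0.00897), and neither was called with scan day as a random block (adjusted p = 0.117 and 0.0622). A pair of arrays, ob/ob female 4 and lean female 4, shared a scan day. There Bgn was 4535 in ob/ob and 1422 in lean, Lox 211 in ob/ob and 80.2 in lean, Fbln2 1421 in ob/ob and 1013 in lean, and Nid2 159 in ob/ob and 184 in lean. Macrophage markers rose in 12 of 16, with summed signals of 25250 to 33170 in ob/ob females and 4129 to 8326 in lean females. Skeletal muscle markers fell in 7 of 14 (2226 to 6173 in ob/ob females, against 2745 to 8357 in lean females). No smooth muscle and pericyte marker of 9 was called, but ob/ob female 4 had a summed signal of 53690, against 6783 to 7330 in the other ob/ob females and 9291 to 25170 in lean females. The part of these cells was not tested.

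Both sexes of ob/ob mice shared some of these changes, in comparisons that use different arrays. Of 11 genes higher in females and 8 higher in males, 4 were in both lists (Bgn, Fbln2, Lox and Lum), which is 36.4% of the female and 50% of the male list. Of 7 lower in females and 5 lower in males, Eln and Nid2 were in both, 28.6% of the female and 40% of the male list. None was called in opposite directions. How many of all called probe sets were in both lists was not counted. Of all probe sets 10.3% were higher and 14% lower in ob/ob females, and 5.62% higher and 4.96% lower in ob/ob males. In the test of the difference of effects, 7 of 81 probe sets (8.64%) differed between the sexes, against 5.68% of all (2.84% higher and 2.84% lower in males). From 2 to 15 were called when 1 array was left out, with 15 without ob/ob female 4, 2 without lean male 4, 3 without ob/ob male 2 or 4, and 4 without lean female 1, ob/ob female 1 or 3, or lean male 3. By brightest probe set the ob/ob effect was lower in males than in females for Col4a5 (difference -1.48 in log2, adjusted p = 0.0198), Lama4 (-1.0, adjusted p = 0.0217) and Sparc (-0.88, adjusted p = 0.0376). Lama4 was 420 ± 88.5 in ob/ob and 970 ± 117 in lean males, and 569.1 ± 38.0 in ob/ob and 663 ± 179 in lean females. Sparc was 3545 ± 477 in ob/ob and 3644 ± 132 in lean males, while ob/ob females were above lean females. The Sparc and Lama4 differences were not called with scan day as a random block (adjusted p = 0.145 and 0.0911).

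Ay/+ females, a second genetic obesity, had higher Sparc, Col6a2, Col4a2, Dpt and fibronectin than lean females. Of 81 probe sets 10 were higher and 6 lower (19.8%), against 17.8% of all (6.26% higher and 11.5% lower), so the share called was near the background. By gene 7 of 55 were higher and 2 lower, and 10 probe sets were called without Ay/+ female 4. Sparc had signals of 4494, 5337, 4040 and 4208 in Ay/+ females, against 1230, 1456, 1998 and 2224 in lean females. No array overlapped, and the rise was 2.65-fold (log2 1.41 ± 0.18, SE, adjusted p = 2.47e-06). Dpt had signals of 1213, 2206, 2014 and 1692 in Ay/+ females, against 753, 1070, 1032 and 643 in lean females (log2 1.00, adjusted p = 0.00319). Col6a2 averaged 1922 ± 466 in Ay/+ and 816 ± 340 in lean females (log2 1.27, adjusted p = 0.00228), and Col4a2 averaged 4127 ± 902 in Ay/+ and 1988 ± 502 in lean females (log2 1.06, adjusted p = 0.000459).

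Fibronectin (Fn1), an adhesive glycoprotein, had signals of 599, 1225, 1224 and 1447 in Ay/+ females, against 441, 595, 515 and 701 in lean females (log2 0.92, adjusted p = 0.00337). Ay/+ female 1 was within the lean range, and on the scan day that it shared with lean female 4 Fn1 was 599 in Ay/+ and 701 in lean. Col18a1, whose protein yields endostatin (0.82, adjusted p = 0.0158), and Bgn (0.58, adjusted p = 0.0257) also rose, and Bgn was not called with scan day as a random block (adjusted p = 0.0651). The other Bgn probe set, 162347_f_at, was flat in Ay/+ against lean females (log2 -0.01, adjusted p = 0.986). Col3a1 had signals of 1634, 1062, 405 and 801 in Ay/+ females, against 1796, 1070, 1811 and 1880 in lean females. Its fall (log2 -0.86, adjusted p = 0.0405) was -0.51 without Ay/+ female 3 and not called with scan day as a random block (adjusted p = 0.0866), and a second probe set, 161984_f_at, fell too (log2 -1.30, adjusted p = 0.00215). Col19a1 fell (log2 -0.66, adjusted p = 0.0412), with means near the pseudocount. Of 8 fits without 1 array, 5 lost Col3a1 and 6 lost Col19a1. Eln was not called at its brightest probe set (log2 -0.39, adjusted p = 0.175). Its other one, 92207_at, averaged 13.0 in Ay/+ and 134 in lean females and was called lower (log2 -1.85, adjusted p = 0.000976). Macrophage markers rose in 8 of 16 (9368 to 17580 in Ay/+ females, against 4129 to 8326 in lean females), and Ay/+ female 1 had the highest sum. Gapdh 3' to 5' ratios, a measure of RNA quality, were 0.741 to 1.02 in Ay/+ females and 1.31 to 2.51 in lean females, without overlap. The part of either in these differences was not tested. Under quantile normalization Bgn (adjusted p = 0.178) and Col19a1 (adjusted p = 0.0564) were not called.

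Set directly against Ay/+ females, ob/ob females had, by brightest probe set, more Lox, biglycan and fibulins and less Sparc, Dpt, Dcn and Col15a1. Of 81 probe sets 11 were higher and 11 lower (27.2%), against 21.6% of all (11.7% higher and 9.93% lower). By gene 9 were higher and 8 lower. Lox was 453 ± 196 in ob/ob and 93.8 ± 28.4 in Ay/+ females (log2 1.95, adjusted p = 8.15e-05) and Bgn 5198 ± 454 in ob/ob and 2305 ± 492 in Ay/+ females (log2 1.19, adjusted p = 4.4e-05). The other Lox probe set, 161177_f_at, and the other Bgn probe set, 162347_f_at, were not called here. Both had negative log2 fold changes, opposite in sign to the brightest ones. Fbln2 (log2 1.05, adjusted p = 0.00321), Col3a1 (1.04, adjusted p = 0.0125), Lama5 (0.96, adjusted p = 0.0114), Col4a5 (0.95, adjusted p = 0.0135), Col5a2 (0.88, adjusted p = 0.0403), Fbln1 (0.85, adjusted p = 0.0114) and Lum (0.77, adjusted p = 0.0111) were higher. Col9a2 (log2 -1.31, adjusted p = 0.00222), Dpt (-1.05, adjusted p = 0.00219), Col9a3 (-0.92, adjusted p = 0.043), Col15a1 (-0.85, adjusted p = 0.001), Lamb1 (-0.77, adjusted p = 0.00808), Col11a2 (-0.78, adjusted p = 0.0437) and Sparc (-0.57, adjusted p = 0.0239) were lower. Decorin (Dcn) had signals of 3712, 4185, 4080 and 11980 in ob/ob females, against 6149, 12990, 10940 and 9748 in Ay/+ females. Its fall (log2 -0.87, adjusted p = 0.0311) was -1.26 without ob/ob female 4, the array above most Ay/+ arrays, and was lost in 6 of 8 fits without 1 array. Under quantile normalization Dcn was -0.22 (adjusted p = 0.41) and Sparc -0.30 (adjusted p = 0.217), neither of them called, and Col11a2 was not called either (adjusted p = 0.0611). Without Ay/+ female 3, 14 of 81 probe sets were called. With scan day as a random block Sparc (adjusted p = 0.0628), Lamb1 (0.0664), Col5a2 (0.115), Dcn (0.186), Col9a3 (0.21) and Col11a2 (0.216) were not called, all p-values being adjusted. Macrophage markers were higher in 13 of 16, and the sum over the list spanned 25250 to 33170 in ob/ob females, against 9368 to 17580 in Ay/+ females. Adipocyte markers were lower in 4 of 12, with sums of 31610 to 38590 in ob/ob females, against 46240 to 65460 in Ay/+ females. Their part in these differences was not tested.

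Few members were called in diet-induced obesity, where lumican was higher and laminin alpha4 lower than in lean males. Of 81 probe sets 1 was higher and 1 lower in obese than in lean males (2.47%), against 1.85% of all (1.22% higher and 0.628% lower). Lum had signals of 833, 1595 and 1761 in obese males, against 753, 688, 584 and 651 in lean males (log2 0.97, adjusted p = 0.0179). Lama4 had signals of 489, 560 and 621 in obese males, against 971, 1033, 806 and 1071 in lean males (log2 -0.78, adjusted p = 0.0374). Neither gene overlapped between groups, but the Lum call was lost in 3 and the Lama4 call in 6 of 7 fits without 1 array. Counting any called member probe set, there were 0 without diet-induced obese male 2 and 1 in each of the other 6 fits. On the 2 scan days shared by both groups Lum was 833 in obese and 651 in lean on one and 1595 in obese and 584 in lean on the other, and Lama4 was 489 in obese and 1071 in lean, and 560 in obese and 806 in lean. Macrophage markers rose in 9 of 16 (28410 to 33630 in obese males, against 8624 to 10870 in lean males), and their part was not tested. In ob/ob against diet-induced obese males, 1 of 81 was called (1.23%), against 0.877% of all (0.258% higher and 0.62% lower). It was Eln, at 825, 919, 803 and 900.1 in ob/ob males, against 1796, 1683 and 1856 in diet-induced obese males, with no overlap (log2 -1.03, adjusted p = 0.00856). The call was lost without diet-induced obese male 1.

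Pioglitazone lowered nidogen 2 in all 3 models, and dermatopontin in both female models. No member was called higher with the drug in these comparisons. In Ay/+ females 6 of 81 probe sets were lower (7.41%), against 3.03% of all probe sets (2.13% higher and 0.91% lower). Among ob/ob females the count was 2 of 81 lower (2.47%), against 1.06% of all (0.733% higher and 0.33% lower). Among diet-induced obese males it was 3 of 81 lower (3.7%), against 1.42% of all (0.757% higher and 0.66% lower). Medians over the 55 genes were -0.19, -0.20 and -0.18 in the 3 models in this order, against 0.05, -0.05 and -0.08 over all probe sets. Without Ay/+ female 1, 13 probe sets were called in Ay/+ females. In ob/ob females 0 were called without treated female 2 and 1 without treated female 3, and in obese males 1 was called without treated male 3 or without untreated male 2 or 3. The models do not share arrays. Nid2 was called in each of them, which is 20% of the 5 genes lower in Ay/+ females and 50% of the 2 genes lower in each other model, and Dpt was called in Ay/+ and ob/ob females. The same overlap over all probe sets was not counted.

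**Figure D3:**
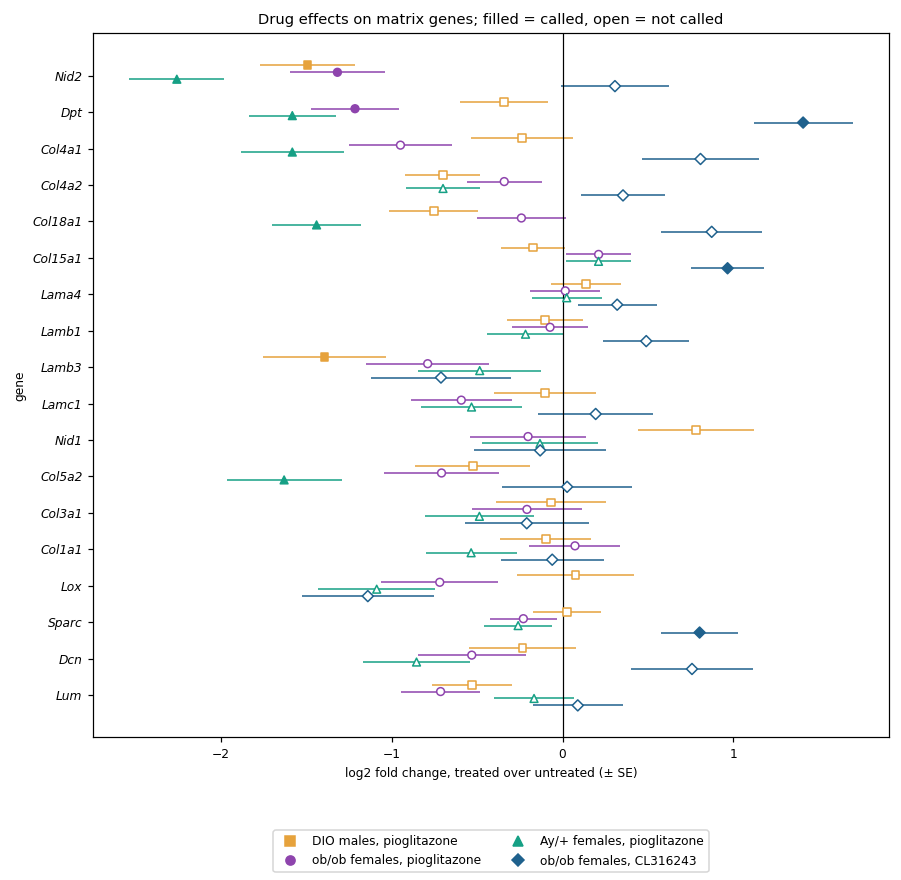
Log2 fold changes (x axis, ± SE) of 18 matrix genes under pioglitazone in diet-induced obese males, ob/ob females and Ay/+ females, and under CL316243 in ob/ob females. Filled symbols were called. Nid2 lay at -1.49, -1.32 and -2.26 under pioglitazone, and Dpt at 1.41 under CL316243.

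Nid2 had signals of 37.0, 21.2 and 17.8 in treated Ay/+ females, against 505, 156, 153 and 139 in untreated Ay/+ females. Treated arrays lay near or below the pseudocount of 23, so that the fitted 4.78-fold (log2 -2.26 ± 0.28, SE, adjusted p = 2.52e-06) is compressed, and it was -1.85 without Ay/+ female 1. In ob/ob females Nid2 had signals of 42.7, 44.1 and 44.2 with pioglitazone, against 147, 125, 143 and 159 without (log2 -1.32, adjusted p = 0.00877). In diet-induced obese males it had signals of 128, 69.5, 109 and 102 with pioglitazone, against 252, 384 and 349 without (log2 -1.49, adjusted p = 0.00157). Every treated array lay below every untreated array of its model. In ob/ob females the call was lost with scan day as a random block (adjusted p = 0.0749) and without treated ob/ob female 2 or 3. On shared scan days Nid2 was 17.8 in a treated and 153 in an untreated Ay/+ female, and 109 in a treated and 384 in an untreated obese male. Nid1, the other nidogen, was not called in any of the 3 (log2 -0.13, -0.20 and 0.78 in Ay/+ females, ob/ob females and obese males, adjusted p = 0.916, 0.999 and 0.383).

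Dpt had signals of 508, 535 and 664 in treated Ay/+ females, against 1213, 2206, 2014 and 1692 in untreated Ay/+ females (log2 -1.58 ± 0.26, SE, adjusted p = 0.000161). In ob/ob females it had signals of 330, 303 and 404 with pioglitazone, against 734, 567, 1050 and 1066 without (log2 -1.21, adjusted p = 0.00867). Neither pair of groups overlapped, and the ob/ob call was lost without treated ob/ob female 2. In diet-induced obese males Dpt had signals of 1338, 475, 990.4 and 985 with pioglitazone, against 1081, 1335 and 1008 without, which overlapped and was not called (log2 -0.34, adjusted p = 0.732).

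Collagen IV, V and XVIII chains and Lamb3 were the other members called under pioglitazone. In Ay/+ females Col4a1, the main basement membrane collagen, had signals of 1717, 1809 and 1399 with the drug, against 6021, 4816, 4217 and 4837 without (log2 -1.58, adjusted p = 0.00124). In ob/ob females Col4a1 had signals of 2181, 2126 and 2321 with the drug, against 3256, 3656, 3181 and 8876 without, which did not overlap and was not called (log2 -0.95, adjusted p = 0.173). Col5a2 had signals of 295, 417 and 352 in treated Ay/+ females, against 3193, 790, 845 and 771 in untreated Ay/+ females (log2 -1.63, adjusted p = 0.0031, and -1.14 without Ay/+ female 1). Col18a1 averaged 303 ± 157 in treated and 792 ± 139 in untreated Ay/+ females (log2 -1.44, adjusted p = 0.000641), and was -1.0 without treated Ay/+ female 3, whose label gives no dose. In obese males Lamb3, a chain of epithelial laminins, was 21.5 ± 21.0 with and 86.5 ± 11.9 without pioglitazone (log2 -1.39, adjusted p = 0.0361), and the call was lost in 6 of 7 fits without 1 array. A second Col18a1 probe set, 162483_f_at, also fell in Ay/+ females (log2 -1.21, adjusted p = 0.00963). In obese males 101881_g_at of Col18a1 fell (log2 -1.01, adjusted p = 0.0228) while the brightest one was not called (-0.75, adjusted p = 0.19). Apart from Col5a2 in Ay/+ females, fibrillar collagens and the small leucine-rich proteoglycans were not called in the pioglitazone comparisons. For Lum the log2 fold changes were -0.17 in Ay/+ females, -0.71 in ob/ob females and -0.53 in obese males, and for Bgn -0.19, -0.02 and -0.09.

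The test of a different pioglitazone effect in ob/ob and Ay/+ females called by limma 0 of 81 members and 0.0242% of all probe sets (0.0161% higher and 0.00805% lower), of which 627 had an unadjusted p under 0.05. The pericyte gene Rgs5 moved with Nid2 in all 3 models. It averaged 77.2 ± 35.2 in treated and 192 ± 39.6 in untreated Ay/+ females (log2 -1.14, adjusted p = 0.00711), 90.2 ± 22.6 in treated and 308 ± 117 in untreated ob/ob females (-1.5, adjusted p = 0.000699), and 63.3 ± 23.3 in treated and 171 ± 29.9 in untreated obese males (-1.19, adjusted p = 0.00669). Of 9 smooth muscle and pericyte markers 3, 1 and 1 fell in these models. Their summed signals were 4117 to 5384 in treated and 6936 to 12070 in untreated Ay/+ females, 2532 to 8525 in treated and 6783 to 53690 in untreated ob/ob females, and 2044 to 3329 in treated and 4244 to 5166 in untreated obese males. The part of these cells in the fall of Nid2 was not tested.

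CL316243, tested on 2 arrays of ob/ob females, raised dermatopontin, Col15a1 and Sparc. Of 81 probe sets 4 were higher and none lower than in untreated ob/ob females (4.94%), against 3.74% of all (1.55% higher and 2.18% lower). Dpt had signals of 2422 and 2059 with CL316243, against 734, 567, 1050 and 1066 in untreated ob/ob females. Both treated arrays were above all 4 untreated arrays (log2 1.41 ± 0.29, SE, adjusted p = 0.00659). Col15a1 had signals of 1915 and 2277 with CL316243, against 1110, 967, 1282 and 911 without (log2 0.97, adjusted p = 0.0104), and Sparc had signals of 5528 and 5019 with CL316243, against 2907, 2887, 2862 and 3422 without (log2 0.80, adjusted p = 0.0402). None of the 4 calls held with scan day as a random block (adjusted p = 0.0698 for Dpt, 0.0769 for Col15a1 and 0.162 for Sparc), and none when either CL316243 array was left out. Without ob/ob female 4, 11 of 81 were called, and without ob/ob female 1 or 2, 2 were called. Under quantile normalization Sparc was 0.36 (adjusted p = 0.371) and not called. Adipocyte markers were higher in 2 of 12, with summed signals of 51060 to 60890 with CL316243 and 31610 to 38590 without, and no macrophage marker of 16 was called (26490 to 28400 with CL316243, 25250 to 33170 without). Their part was not tested.

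Against pioglitazone-treated ob/ob females, the CL316243 arrays had 8 probe sets higher and 2 lower of 81 (12.3%), against 7.59% of all (2.91% higher and 4.69% lower). This comparison shares arrays with both drug comparisons above. Dpt was 2240 ± 257 with CL316243 (SD, n = 2) and 346 ± 52.1 with pioglitazone (SD, n = 3), a 6.16-fold difference (log2 2.62 ± 0.31, SE, adjusted p = 1.38e-06). Col4a1 had signals of 7810 and 7228 with CL316243, against 2181, 2126 and 2321 with pioglitazone (log2 1.76, adjusted p = 0.00181). Nid2 had signals of 162 and 206 with CL316243, against 42.7, 44.1 and 44.2 with pioglitazone (log2 1.62, adjusted p = 0.00187). For all 3 genes every CL316243 array was above every pioglitazone array. Dcn (1.29, adjusted p = 0.0295), Col18a1 (1.11, adjusted p = 0.0217), Sparc (1.03, adjusted p = 0.00523) and Col15a1 (0.75, adjusted p = 0.0335) were also higher. Fmod had signals of 22.5 and 24.4 with CL316243, against 217, 287 and 140 with pioglitazone (log2 -2.31, adjusted p = 0.0101), and Thbs2 had signals of 41.2 and 50.3 with CL316243, against 137, 158 and 136 with pioglitazone (log2 -1.28, adjusted p = 0.0128). At the other Fmod probe set, 161373_r_at, the CL316243 arrays were higher without overlap, opposite to the brightest one. It was not called (log2 1.07, adjusted p = 0.192). With scan day as a random block Col15a1 (adjusted p = 0.126), Col18a1 (adjusted p = 0.087), Dcn (adjusted p = 0.102), Thbs2 (adjusted p = 0.0636) and Fmod (adjusted p = 0.0558) were not called. Of the 10 probe sets, 4 were called without CL316243 array 1 and 3 without array 2, and Dpt and Col4a1 kept their calls in all 5 fits without 1 array. The Nid2 call was lost without CL316243 array 2, the Sparc call without array 1, and the Fmod and Thbs2 calls without either. Under quantile normalization Dcn was 0.42 (adjusted p = 0.317) and Sparc 0.59 (adjusted p = 0.0978), and neither was called. Adipocyte markers were higher in 3 of 12, with sums of 51060 to 60890 with CL316243 and 31120 to 38600 with pioglitazone. Gapdh 3' to 5' ratios were 0.998 to 1.11 with CL316243 and 0.743 to 0.857 with pioglitazone. The part of either in these differences was not tested.

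Lean males and lean females also differed in matrix genes. Of 81 probe sets 10 were higher and 10 lower in males (24.7%), against 15.7% of all (5.22% higher and 10.5% lower). By gene 8 were higher and 7 lower. Fmod had signals of 300.1, 446, 345 and 513 in lean males, against 134, 49.2, 174 and 15.4 in lean females (log2 2.11, adjusted p = 0.00216). Bgn had signals of 3408, 4036, 2858 and 3289 in lean males, against 1185, 1498, 2034 and 1422 in lean females (log2 1.15, adjusted p = 8.76e-05), and Sparc averaged 3644 ± 132 in lean males and 1727 ± 462 in lean females (log2 1.11, adjusted p = 0.000139). None of these overlapped. On the shared scan day Fmod was 300.1 in a male and 15.4 in a female, and Bgn 3408 in the male and 1422 in the female. Col4a2 (0.79, adjusted p = 0.00951), Nid2 (0.77, adjusted p = 0.0387), Col18a1 (0.74, adjusted p = 0.0334), Col5a1 (0.62, adjusted p = 0.0252) and Lama4 (0.57, adjusted p = 0.0384) were also higher in males. Nid2 was lost in 7 of 8 fits without 1 array, and with scan day as a random block Nid2 (adjusted p = 0.0541), Lama4 (adjusted p = 0.088), Col5a1 (adjusted p = 0.0719) and Col18a1 (adjusted p = 0.0697) were not called. The other Fmod probe set, 161373_r_at (log2 -0.40, adjusted p = 0.485), was not called. Nor was the other Bgn probe set, 162347_f_at (log2 -0.43, adjusted p = 0.199). Both were opposite in sign to the brightest ones.

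Lower in lean males were Col26a1 (log2 -1.38, adjusted p = 0.0113), Col7a1 of anchoring fibrils (-1.27, adjusted p = 0.043), tenascin C (Tnc, -1.13, adjusted p = 0.0203), Col9a3 (-1.10, adjusted p = 0.0227), Col10a1 (-0.92, adjusted p = 0.0188), Thbs2 (-0.76, adjusted p = 0.039) and Col19a1 (-0.75, adjusted p = 0.0246). Tnc had signals of 38.7, 44.7, 46.4 and 22.3 in lean males, against 209, 65.8, 164 and 55.9 in lean females, so the female arrays spread over a wide range without reaching the male ones. With scan day as a random block Tnc (adjusted p = 0.0677), Col19a1 (adjusted p = 0.0813), Col7a1 (adjusted p = 0.0973) and Thbs2 (adjusted p = 0.0997) were not called. Of the 20 called probe sets in this comparison, 10 were left without lean female 1, 9 without lean female 3, 13 without lean male 2 and 12 without lean male 4. Skeletal muscle markers fell in 9 of 14 (1117 to 1329 in lean males, against 2745 to 8357 in lean females), and smooth muscle and pericyte markers in 5 of 9 (5486 to 7275, against 9291 to 25170). Their part in these differences was not tested. Quantile normalization gave 8 higher and 4 lower of 81 in place of 10 and 10, with a median over all probe sets of -0.01 in place of -0.20. There Col10a1 was -0.55 (adjusted p = 0.159), Thbs2 -0.40 (adjusted p = 0.333) and Col19a1 -0.36 (adjusted p = 0.237). Tnc, Col7a1, Col9a3, Col5a1, Col18a1, Nid2 and Lama4 also lost their calls, with adjusted p between 0.0542 and 0.114.

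**Figure D4:**
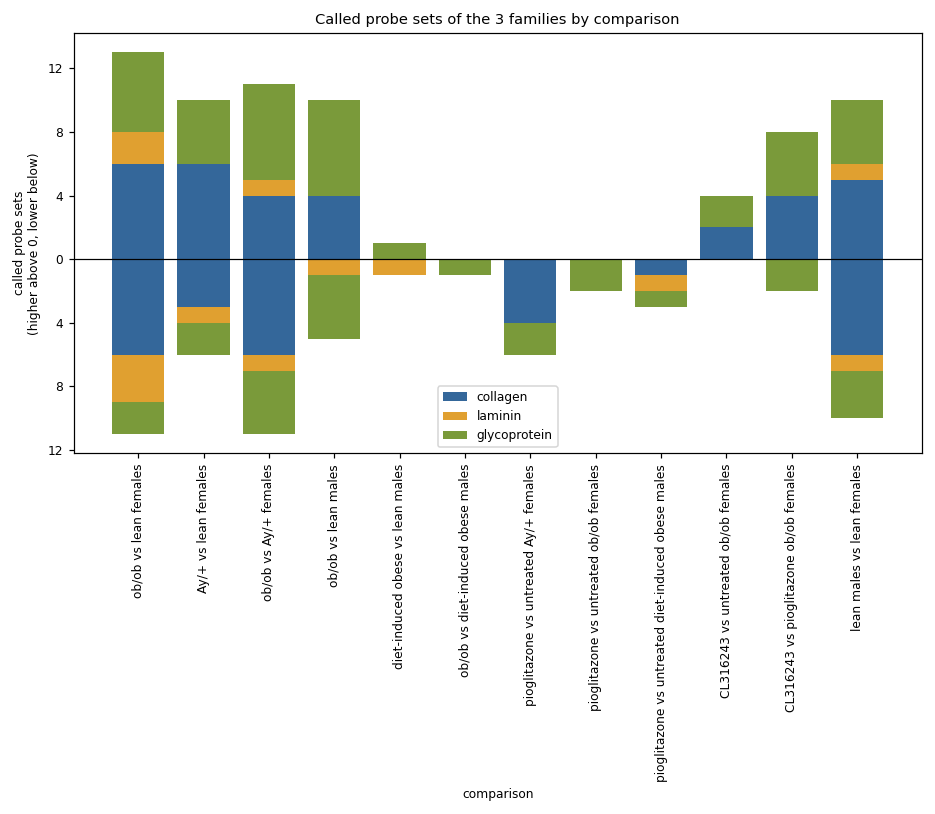
Number of called probe sets (y axis, higher above 0 and lower below) in each of the 12 comparisons between 2 groups, stacked by family. The untreated female comparisons and lean males against lean females held 16 to 24 called probe sets each, and the pioglitazone comparisons held only lower ones.

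Probe sets of 1 gene did not always move together. Of the 55 genes 20 had more than 1 probe set. Col1a1 was flat at 94305_at in CL316243-treated against untreated ob/ob females (log2 -0.06, adjusted p = 0.959). At 103709_at it had signals of 5157 and 6413 with CL316243, against 778, 855, 1033 and 2366 without (log2 2.32, adjusted p = 0.02). The same probe set had signals of 634, 8429, 5536 and 5212 in Ay/+ females, against 1387, 1285, 1483 and 917 in lean females. It was high on 3 of 4 Ay/+ arrays and below all lean arrays on Ay/+ female 1, the later array. Col1a2 at 161156_r_at was likewise 416 on Ay/+ female 1 and 1889 to 3111 on the other Ay/+ arrays. Without Ay/+ female 1 the log2 fold change against lean females was 2.30 for Col1a1 and 1.70 for Col1a2, in place of 1.49 and 1.08.

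**Figure D5:**
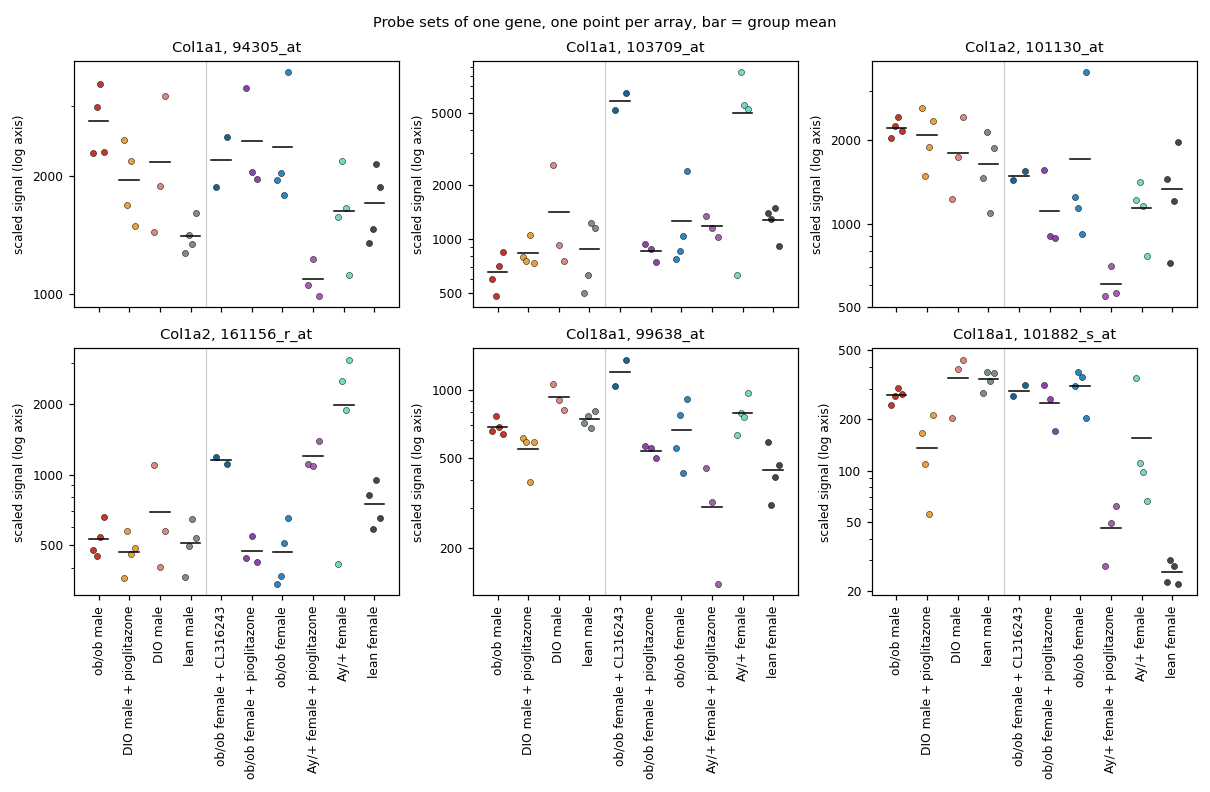
Scaled signal (log axis) of 2 probe sets each of Col1a1, Col1a2 and Col18a1 on every array, with group means as bars and males left of the grey line. The 103709_at set of Col1a1 was at 5157 to 8429 on both CL316243 arrays and 3 of 4 Ay/+ arrays, while the 94305_at set had no such jump.

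Col18a1 at 101882_s_at had signals of 311, 375, 348 and 202 in ob/ob females, 344, 110.4, 98.2 and 66.4 in Ay/+ females, and 22.4, 30.2, 27.9 and 21.9 in lean females. In males it had signals of 240.4, 272, 304 and 279 in ob/ob mice and 282, 373, 333 and 370 in lean mice. Among these 5 groups lean females alone were near the pseudocount, and the ob/ob effect differed between the sexes (-3.03 in log2, adjusted p = 7.11e-05). At the brightest probe set of the gene, 99638_at, lean females had signals of 590.4, 308, 414 and 467, and the difference between the sexes was not called (-0.64, adjusted p = 0.256). Members that lie next to each other in the genome, by the RefSeq gene table, form 6 pairs: Col3a1 with Col5a2, Col4a1 with Col4a2, Col4a3 with Col4a4, Col6a1 with Col6a2, Col9a1 with Col19a1, and Dcn with Lum. Col4a1 and Col4a2 were called together in none of the comparisons, and Dcn and Lum had calls in opposite directions in ob/ob against Ay/+ females.

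Genes that make, modify, bind or degrade matrix were counted from lists chosen by function. Of 12 genes of collagen modification, 4 rose in ob/ob females, 2 in ob/ob males, 2 in Ay/+ females and 1 in diet-induced obese males, each against lean mice of the same sex, where 10.3%, 5.62%, 6.26% and 1.22% of all probe sets rose. None was called under pioglitazone. Ctsk, a collagen-degrading protease, was 1809 ± 921 in ob/ob and 228 ± 61.0 in lean females (log2 2.69, adjusted p = 6.67e-07), and 2301 ± 560 in ob/ob and 155 ± 18.4 in lean males (3.68, adjusted p = 1.14e-09). In Ay/+ females Pcolce, an enhancer of procollagen processing, was higher (1.15, adjusted p = 0.00233). Of 15 metalloproteinases and inhibitors, 4 rose and 2 fell in ob/ob against lean males (5.62% and 4.96% of all probe sets), among them Timp1, an inhibitor of matrix proteases, at 1579 ± 231 in ob/ob and 247 ± 73.3 in lean males (2.61, adjusted p = 7.29e-10). Mmp12, the macrophage elastase, was 6586 ± 1096 in ob/ob and 198 ± 108 in lean males (5.01, adjusted p = 1.5e-09).

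Of 28 other matrix proteins 3 rose and 3 fell in ob/ob males, where 10.6% of all probe sets were called. Mgp, the matrix Gla protein (1.46, adjusted p = 0.000304), and Postn, periostin (1.43, adjusted p = 0.00011), rose, while Smoc1, a basement membrane protein (-2.41, adjusted p = 2.91e-08), and Ltbp4, a latent TGF beta binding protein (-1.32, adjusted p = 1.92e-06), fell. The same list had 3 higher and 3 lower in ob/ob females, among them perlecan (Hspg2), the basement membrane proteoglycan, at 967 ± 363 in ob/ob and 381 ± 89.0 in lean females (1.23, adjusted p = 0.000417). Of 21 TGF beta genes 1 rose and 2 fell in ob/ob males and 4 rose and 1 fell in ob/ob females, near the 10.6% and 24.3% of all probe sets called there. Tgfb1 rose in both, by 2.51 in males (adjusted p = 0.000584) and 2.25 in females (adjusted p = 0.00154). Of 23 matrix receptors 2 fell with pioglitazone in Ay/+ females and 2 in obese males (0.91% and 0.66% of all probe sets fell), with Itga7, a laminin-binding integrin chain, in both (-0.85, adjusted p = 0.0174, and -1.23, adjusted p = 0.000623). With CL316243, 3 rose in ob/ob females (1.55% of all probe sets rose), among them Sdc4, a heparan sulfate receptor, at 2352 ± 54.2 with CL316243 and 189 ± 201 without (3.87, adjusted p = 0.00208), Itga7 (0.82, adjusted p = 0.0458) and Dag1, the laminin receptor dystroglycan (0.72, adjusted p = 0.0213). Of 13 fibroblast and fat progenitor markers 2 rose and 2 fell in ob/ob females, and 1 rose and 1 fell in ob/ob males, against 24.3% and 10.6% of all probe sets called. Summed over the list, signals were 4456 to 6311 in female ob/ob fat, against 3386 to 4067 in female lean fat, and 5338 to 7033 in male ob/ob fat, against 3234 to 4557 in male lean fat. Their part in the matrix changes was not tested.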

How the data were processed

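The deposited values are signal intensities on a linear scale, made by the authors with MAS5 per the submitters' processing notes, with a version and scaling target not given in the sources used here. Deposited experiment files hold other values (settings of staining and scanning) and served to find batches. Trimmed means of the arrays ran from 250 to 1680 before they were set to 250, over 12488 probe sets with 66 controls, which were then left out. Of the rest 10833 had 1 gene symbol, 396 several and 1193 none. The pseudocount was 23, the lower quartile of the scaled signals, and log2 of the scaled signals plus 23 was tested, so fold changes of dim genes are compressed.

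One mean per group was fitted with limma 3.58.1 in R 4.3.3 (eBayes with a mean-variance trend), and p-values were adjusted by Benjamini and Hochberg within each of 14 comparisons. On data simulated for these comparisons, each with 12422 probe sets, the fit found 26 to 48% of changes of log2 1 and 86 to 98% of those of log2 2. Of its calls 1.74 to 7.03% were false. The number of arrays limits the precision. Genes were named by a rule: up to 6 member genes with the largest called rise and 6 with the largest called fall where the higher mean was at least 46, 24 genes of the fibrillar, basement membrane and microfibrillar matrix, and up to 4 called genes per list. Other members and probe sets were added after their values were seen. Members, lists and the 4 arrays left out together were chosen with earlier results of these data known. Alternatives were quantile normalization, a pseudocount of 1, bright probe sets only, no trend, compared groups only, array weights, batch, scan day and replicate terms, each batch alone, and leaving out arrays. Same replicate numbers did not pair samples. Tables and figures were made with Python 3.11.15, pandas 2.3.3 and matplotlib 3.10.9.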

Additional observations from a re-analysis of the deposited data

Results flagged for a closer look

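Of 300 values (1 gene in 1 group of 4 arrays), 34 (11.3%) had 1 array far from the other 3, where chance gives about 1 in 20. By array, ob/ob female 4 held 10 and Ay/+ female 1 held 5. In ob/ob female 4, signals stood above those of the other 3 ob/ob females for Col17a1 (104.7, against 7.75 to 11.9), Col1a1 (3664, against 1787 to 2025), Col1a2 (3528, against 919 to 1249), Col26a1 (152.5, against 45.6 to 56.2) and Col4a1 (8876, against 3181 to 3656). The same held for Dcn (11980, against 3712 to 4185), Fn1 (1211, against 580 to 627), Sparc (3422, against 2862 to 2907), Lamb1 (430.4, against 207 to 220) and Lamb3 (131.9, against 63.0 to 66.6). In Ay/+ females, replicate 1 stood apart for Col5a2 (3193, against 771 to 845), Fmod (213.2, against 34.6 to 46.3), Lum (1370, against 856 to 908), Nid2 (504.5, against 139 to 156) and Col8a1 (79.48, against 153 to 160), replicate 2 for Col19a1 (41.96, against 20.9 to 22.2) and replicate 4 for Col4a2 (5470, against 3529 to 3805).

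In lean females the array apart was low for Col3a1 (1070), Col6a1 (1571) and Eln (1330), and high for Col4a1 (7033), Fbln2 (1013) and Lum (1412), all 3 on replicate 4. In lean males it was high for Col4a5 (97.77) and Thbs2 (60.45). In ob/ob males Fmod was high on replicate 1 (260.9) and Col19a1 low on replicate 4 (16.95). In pioglitazone-treated diet-induced obese males the array apart was high for Col10a1 (25.87), Col4a2 (3371), Col8a1 (233.1), Tnc (89.25), Lamb1 (462.2) and Lamb3 (52.87), and low for Col18a1 (391.0). Replicate 1, with the highest Gapdh 3' to 5' ratio, was the one for Col4a2, Col8a1 and Tnc.

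The ob/ob effect in males minus that in females was tested as an interaction and differed for 7 probe sets, in log2: Col18a1 at 101882_s_at (-3.03), Col4a5 (-1.48), Lama4 (-1.0), Sparc (-0.88), Bgn at 162347_f_at (1.06), Col3a1 at 161984_f_at (1.68) and Col9a3 at 162103_i_at (1.70). All 4 ob/ob male arrays were of the later form and 3 of 4 ob/ob female arrays of the earlier one.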

How the results depend on the processing

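Counts below are of called member probe sets out of 81, and the cause of each shift was not tested unless stated. Of 132 gene results, 23 kept their call and direction under every alternative run. These include Bgn in ob/ob females, Lum, Lama4, Nid2, Eln and Dpt in ob/ob males, and Nid2, Dpt and Col4a1 with pioglitazone in Ay/+ females. Fits on the compared groups alone, which have fewer arrays, gave 9 in ob/ob and 4 in Ay/+ against lean females, 2 in ob/ob against Ay/+, 1 in diet-induced obese against lean males, 2 in ob/ob against diet-induced obese males, 3, 0 and 1 with pioglitazone in Ay/+, ob/ob and obese male mice, 0 with CL316243 and 22 for CL316243 against pioglitazone. Array weights gave 39 in ob/ob against lean females, 41 in ob/ob against Ay/+, 5 and 6 in those 2 diet-induced obese comparisons, 11, 9 and 11 with pioglitazone in that order of models, 20 with CL316243, 25 between the drugs, 32 in lean males against females and 30 and 1 in the sex and pioglitazone interactions. Earlier arrays alone gave 36 in ob/ob against Ay/+, 0 in diet-induced obese against lean males, 15 with pioglitazone in Ay/+, 12 with CL316243 and 1 in the pioglitazone interaction. Later arrays alone, 1 array per untreated female group with its spread taken from the others, gave 3, 1 and 1 in the female comparisons in the order above, 0 in both diet-induced obese comparisons, 1 with pioglitazone in obese males, 5 between lean sexes and 1 in the sex interaction. There 19 results reversed. In ob/ob against lean females these were Col26a1 (0.36), Col3a1 161984_f_at (0.54), Col6a2 (-0.44), Col9a3 162103_i_at (0.33), Lama5 161702_f_at (0.34) and Lamb1 101948_at (0.0); in Ay/+ against lean, Col1a1 103709_at (-0.52), Col1a2 161156_r_at (-0.62) and Fn1 (-0.22). In ob/ob against Ay/+ they were Col11a2 (0.23), Col18a1 101882_s_at (-0.71), Col1a1 103709_at (1.86), Col1a2 161156_r_at (0.63), Col5a2 (-0.21), Col9a2 (0.08), Col9a3 (0.57), Dcn (0.96), Fmod 161373_r_at (1.38) and Lamb1 (0.15). Earlier arrays alone could not be fitted for ob/ob males, nor later arrays for drug-treated females. Scan day as a random block gave 10, 10 and 13 in the female comparisons, 4 in diet-induced obese against lean males, 1 with pioglitazone and 0 with CL316243 in ob/ob females, 5 between the drugs, 11 between lean sexes and 2 in the sex interaction. Without the 4 arrays that stand apart there were 39 in ob/ob against Ay/+, 4 and 3 in the diet-induced obese comparisons, 13 with pioglitazone in Ay/+ and 8 in obese males, 13 with CL316243, 31 between lean sexes, and 22 and 1 in the interactions. Quantile normalization gave 1 in diet-induced obese against lean males and 12 between lean sexes, and 12 higher and 7 lower in ob/ob against Ay/+ in place of 11 and 11. No trend gave 1 in diet-induced obese males, and bright probe sets alone (fewer tested) gave 2 in ob/ob against diet-induced obese males, 10 with pioglitazone in Ay/+ and 11 between lean sexes.

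Leaving out 1 array at a time gave 13 to 30 calls in ob/ob against lean females, 10 to 21 in Ay/+ against lean, 14 to 30 in ob/ob against Ay/+, 12 to 15 in ob/ob against lean males, 0 to 1 in both diet-induced obese comparisons, 6 to 13, 0 to 2 and 1 to 3 with pioglitazone in Ay/+, ob/ob and obese male mice, 0 to 11 with CL316243, 3 to 9 between the drugs, 9 to 22 between lean sexes, 2 to 15 in the sex interaction and 0 to 0 in the other. Same-numbered samples share only a number: their deviations correlated at -0.298 to 0.19, and the replicate number as a block gave 1 call in diet-induced obese against lean males (2 without it) and counts within 1.5 times in all other comparisons. Signals under 46 are too close to background to size a fall.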

Other observations

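Some genes of the other lists were also called. In pioglitazone-treated ob/ob females Fst, follistatin, an inhibitor of activins, was 29.1 ± 23.7 with and 120 ± 29.8 without the drug (SD, n = 3 and 4, log2 -1.56, adjusted p = 0.00189), and its drug effect differed from that in Ay/+ females (-2.14, adjusted p = 0.0344). Matn2, a filament-forming matrilin, was 84.2 ± 11.2 with and 282 ± 54.3 without pioglitazone in ob/ob females (-1.5, adjusted p = 0.00614). Ccn2, a connective tissue growth factor, was 55.8 ± 9.96 with CL316243 and 189 ± 46.6 in untreated ob/ob females (-1.41, adjusted p = 0.0343). In ob/ob against lean males Mmp3, stromelysin, was 306 ± 55.3 in ob/ob and 36.4 ± 15.2 in lean males (2.49, adjusted p = 5.56e-08).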
